A study of Saccharomyces cerevisiae with 7 samples.

Results

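The genes described here make adenine nucleotides in budding yeast, Saccharomyces cerevisiae, together with the gene of their activator, BAS1. They were chosen by name, as the probe sets whose platform annotation gives ADE1, ADE2, ADE4, ADE6, ADE8, ADE12, ADE13, ADE16, ADE17 or BAS1. All 10 genes were found, each with 1 probe set, among the 5498 probe sets (5449 genes) that were named to a gene and compared. RNA came from 3 biological replicates of a strain without HMT1, which carries the KANMX4 cassette in its place in the haploid laboratory strain BY4741 (mating type a), and from 4 biological replicates of BY4741 itself as the wild type. Both strains share the alleles his3Δ1, leu2Δ0, met15Δ0 and ura3Δ0, and no adenine gene is among these markers. HMT1 encodes the enzyme that carries out most arginine methylation of yeast proteins. The labels describe 1 deletion strain. They name a rich medium and minimal media with or without phosphate for the study, and do not tie the array cultures to any of these. Each culture was measured on 1 Affymetrix Yeast Genome 2.0 array, and the values are log2 expression after RMA. RMA brings the probe signals of all arrays to the same distribution before they are summarized per probe set. Differences are given as deletion minus wild type, in log2 units.

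Yeast builds the purine ring step by step on phosphoribosyl pyrophosphate (PRPP) and ends at inosine monophosphate (IMP), from which one branch leads to AMP and another to GMP. The Myb-type factor Bas1 switches on most ADE genes together with the homeodomain protein Pho2, and the pathway intermediates SAICAR and AICAR promote the pairing of these proteins. Pho2 is also the partner of Pho4 at phosphate genes such as PHO5, so the adenine and phosphate pathways share this factor. Cells turn the ADE genes down when adenine is supplied and up when it runs out.

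The deletion was visible in the arrays. HMT1 read 5.03, 4.50 and 4.77 on the 3 deletion arrays, against 12.10, 11.76, 11.58 and 11.90 on the 4 wild-type arrays, and fell by 7.07 (SE 0.15, limma adjusted p = 4.89e-07). Mating type a was checked by its specific genes: the 7 a-specific genes averaged 11.97 to 12.07 on the deletion arrays and 11.48 to 12.41 on the wild-type arrays, and the 4 alpha-specific genes averaged 6.35 to 6.56 and 6.36 to 6.55. Among the alpha-specific genes, the pheromone gene MF(ALPHA)1 read 4.11 to 4.14 in the deletion strain and 3.96 to 4.12 in the wild type. The agglutinin gene SAG1 read 8.77 to 8.87 in the deletion strain and 8.87 to 9.15 in the wild type. Every deletion array lay below every wild-type array, as in 4.49% of all probe sets, though the closest values were nearly equal. SAG1 did not pass (limma adjusted p = 0.796). Wild-type replicates 1 and 3 stood apart from the other 5 arrays. The probe sets with J01347 in their names read 3.18 to 4.44 there, against 6.16 to 12.6 elsewhere. The a-specific genes divided likewise in the wild type, averaging 11.56 and 11.48 on replicates 1 and 3, against 12.41 and 12.35 on replicates 2 and 4. Median log2 expression of the compared probe sets lay between 9.95 and 9.98 on all 7 arrays.

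None of the 10 genes passed the test between the strains. By limma with Benjamini-Hochberg adjustment over all 5498 probe sets, 0 of the 10 were called (adjusted p from 0.823 to 0.961), where 0.2% of all probe sets were called. At an unadjusted p under 0.05 the count was also 0 of 10, against 6.64% of all probe sets, and the same fit without moderation gave 0 at both levels. The measured differences ran from -0.23 for ADE4 to 0.12 for ADE16, with a median of -0.073 beside 0.0065 over all compared probe sets. In 0 of the 10 genes did the arrays of the strains separate, against 7.64% of all probe sets. Of the 10 differences 9 were below 0, as were 47.5% of all differences, and this count was 3 without wild-type replicate 4. The 95% intervals of the differences all held 0 and together spanned -0.63 to 0.32, so a change to 0.648-fold or to 1.25-fold marks the outermost limits, and a log2 change of 1 in either direction lies outside every interval. With 3 and 4 arrays, the number of arrays limits this precision.

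**Figure D1:**
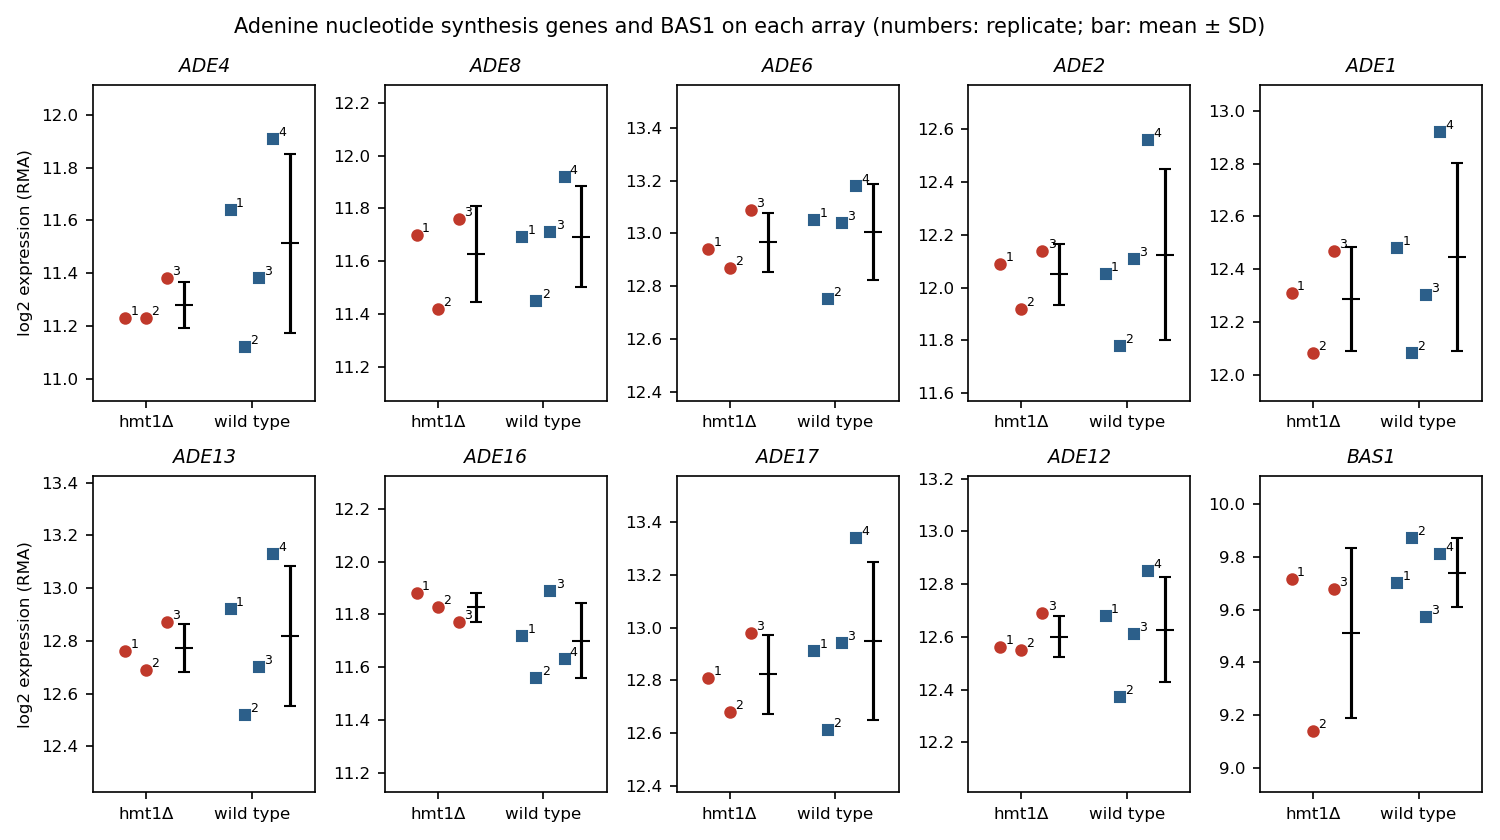
Log2 expression (RMA) of the 10 genes on each array, with the 3 hmt1Δ arrays as circles and the 4 wild-type arrays as squares, numbered by replicate, and the mean ± SD as a bar beside each group. Every panel spans the same height on the log2 scale, levels are not comparable between panels, and in all 10 panels the strains overlap.

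The pathway opens with ADE4, the amidotransferase that commits PRPP to purine synthesis and is held back by its end products. ADE4 (YMR300C) read 11.23, 11.23 and 11.38 on deletion arrays 1 to 3, against 11.64, 11.12, 11.38 and 11.91 on wild-type arrays 1 to 4. The deletion arrays lay close together within the wild-type range. The difference of -0.23 (SE 0.17, 95% interval -0.63 to 0.16) did not pass (limma adjusted p = 0.840), and it was -0.10 without wild-type replicate 4. An exact permutation test (two-sided, 35 possible divisions of the arrays) gave p = 0.371 for ADE4. The smallest p that the ADE4 values allow is 0.0571. Over the 10 genes the same exact permutation test gave p from 0.229 to 0.857.

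ADE8 and ADE6 encode later enzymes that build up the chain, glycinamide ribotide transformylase and FGAM synthetase. ADE8 (YDR408C) read 11.70, 11.42 and 11.76 in the deletion strain, against 11.69, 11.45, 11.71 and 11.92 in the wild type. ADE6 (YGR061C) read 12.94, 12.87 and 13.09, against 13.05, 12.75, 13.04 and 13.18. In both genes the deletion arrays fell among the wild-type arrays, apart from ADE8 on deletion replicate 2, which was a little below the lowest wild-type array. Their differences were -0.066 (SE 0.12) and -0.040 (SE 0.11), with adjusted p of 0.908 and 0.934 by limma.

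ADE2 and ADE1 act in the middle of the pathway as AIR carboxylase and SAICAR synthetase, and mutants in either gene are known for their red colonies. ADE2 (YOR128C) read 12.09, 11.92 and 12.14 on the deletion arrays, against 12.05, 11.78, 12.11 and 12.56 on the wild-type arrays. ADE1 (YAR015W) read 12.31, 12.08 and 12.47, against 12.48, 12.08, 12.30 and 12.92. Wild-type replicate 4 was the highest array of all 7 for both genes. The strain differences were -0.080 (SE 0.17) for ADE2 and -0.16 (SE 0.19) for ADE1, with adjusted p of 0.915 and 0.864 by limma. Without wild-type replicate 4 they were 0.065 and -7.19e-05, so the ADE1 difference was then near 0. ADE1 also had the widest spread in the wild type, 0.84 between its lowest and highest array, a factor of 1.79.

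ADE16 and ADE17 are paralogs whose bifunctional enzymes carry out the closing steps from AICAR to IMP. ADE17 (YMR120C) read 12.81, 12.68 and 12.98 in the deletion strain, against 12.91, 12.61, 12.94 and 13.34 in the wild type. ADE16 (YLR028C) read 11.88, 11.83 and 11.77, against 11.72, 11.56, 11.89 and 11.63. ADE16 was the only 1 of the 10 genes with a difference above 0: 0.12 (SE 0.09, adjusted p = 0.836), with its deletion arrays above 3 of the 4 wild-type arrays. ADE17 was at -0.13 (SE 0.16, adjusted p = 0.872 by limma).

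The paralogs were therefore compared with each other within each array. Because the probe sets differ, the size of log2 ADE17 minus log2 ADE16 has no meaning on its own, only its change between arrays. It was 0.93, 0.85 and 1.20 on the deletion arrays, against 1.19, 1.04, 1.04 and 1.70 on the wild-type arrays. The strains overlapped, and the largest value belonged to wild-type replicate 4. The means were 1.00 ± 0.18 (SD, n = 3) in the deletion strain and 1.25 ± 0.31 (SD, n = 4) in the wild type, a difference of -0.25 with an exact two-sided permutation p = 0.286. Without wild-type replicate 4 the difference was -0.097.

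ADE13 encodes adenylosuccinate lyase, which serves both the path to AICAR and the last step to AMP, and ADE12 encodes adenylosuccinate synthase, the enzyme that draws IMP into the AMP branch. ADE13 (YLR359W) read 12.76, 12.69 and 12.87 on the deletion arrays, against 12.92, 12.52, 12.70 and 13.13 on the wild-type arrays. ADE12 (YNL220W) read 12.56, 12.55 and 12.69, against 12.68, 12.37, 12.61 and 12.85. For both genes all 3 deletion arrays lay inside the wild-type range. ADE12 had the difference nearest to 0, at -0.028 (SE 0.11, adjusted p = 0.961), followed by ADE6 and ADE13, at -0.040 each (ADE13: SE 0.14, adjusted p = 0.954 by limma).

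BAS1, the activator, varied in another way than the enzymes. BAS1 (YKR099W) read 9.71, 9.14 and 9.68 on the deletion arrays, against 9.70, 9.87, 9.57 and 9.81 on the wild-type arrays. Deletion replicate 2 alone stood low, and the other deletion arrays lay among those of the wild type. The standard deviation over the deletion arrays was 0.32, larger than that of 97.9% of all compared probe sets in that strain, against 0.13 over the wild-type arrays. The difference was -0.23 (SE 0.15, limma adjusted p = 0.823), and it was -0.043 without deletion replicate 2. BAS1 was the 1 gene of the 10 that spread more widely in the deletion strain than in the wild type. For the 9 others the wild type had the larger standard deviation, as it did for 76.1% of all compared probe sets.

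**Figure D2:**
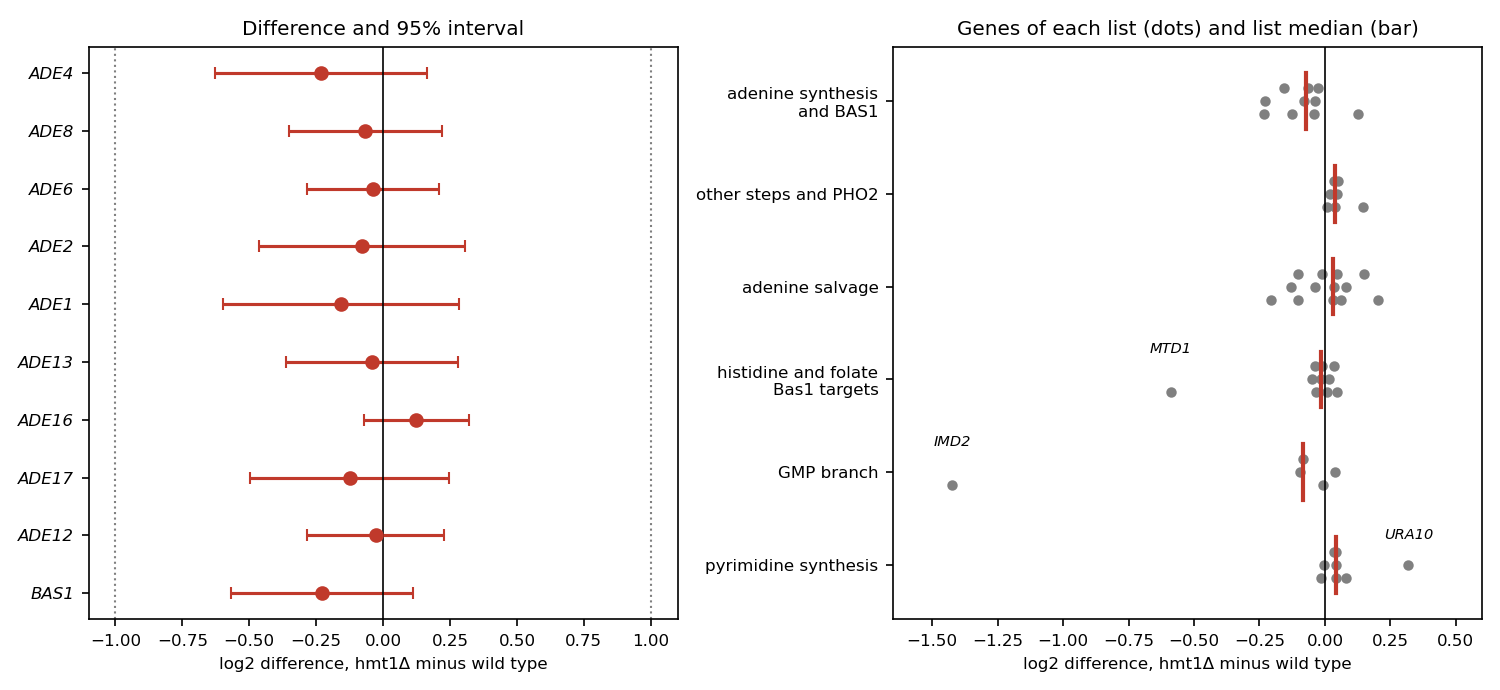
Left, the log2 difference (hmt1Δ minus wild type) of each gene with its 95% interval from limma, with dotted lines at a log2 change of 1 either way. All 10 intervals cross 0. Right, the differences of single genes (dots) and the median (bar) in the same 10 genes and in 5 lists of related genes, where IMD2 at -1.42 and MTD1 at -0.59 lie farthest from 0.

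Next, the spread between cultures of the same strain was set beside the strain difference of these 10 genes. In 10 of 10 genes the range over the wild-type arrays exceeded the strain difference, which also held for 95.4% of all compared probe sets. In 8 of 10 the range over the deletion arrays exceeded it as well, against 71.3% of all probe sets. The exceptions were ADE4 and ADE16. Both shares lay near those of all probe sets.

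This spread had a common form in 8 of the 10 genes. In ADE1, ADE2, ADE4, ADE6, ADE8, ADE12, ADE13 and ADE17, wild-type replicate 4 was the highest and replicate 2 the lowest of the 4 wild-type arrays, a pattern found in 5.06% of all compared probe sets. Replicate 4 exceeded replicate 2 by 0.43 in ADE6, the smallest gap, and by 0.84 in ADE1, the largest. Over the 10 genes the median gap was 0.55. Over all compared probe sets the median gap was 0.025 with its sign, which the normalization holds near 0, and 0.14 regardless of sign. The deletion strain showed a like division with smaller gaps. Replicate 3 was the highest and replicate 2 the lowest deletion array in 7 of the 10 genes (22.8% of all probe sets), and the median gap between these arrays was 0.21, against 0.0092 over all with its sign and 0.094 regardless of sign. Both orders together were present in 7 genes, all of the 8 except ADE4, and in 2.04% of all probe sets. In ADE4 deletion replicates 1 and 2 were both at 11.23. These orders were noticed in the values and are given as a description.

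ADE16 and BAS1 were the genes outside this pattern. In the wild type ADE16 was lowest on replicate 2, like the 8 genes, but it was highest on replicate 3 and differed by 0.069 between replicates 4 and 2, and in the deletion strain it was lowest on replicate 3, where the 8 other enzyme genes were highest. BAS1 was highest on wild-type replicate 2, the array on which the enzyme genes were lowest. In the deletion strain it was lowest on replicate 2, like 7 of the 8 genes, and replicate 3 exceeded replicate 2 by 0.54. The activator's transcript level thus did not follow the array order of the 8 enzyme genes in the wild type. In bulk RNA, a change in the share of cells that express a gene and a change in RNA per cell cannot be told apart.

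**Figure D3:**
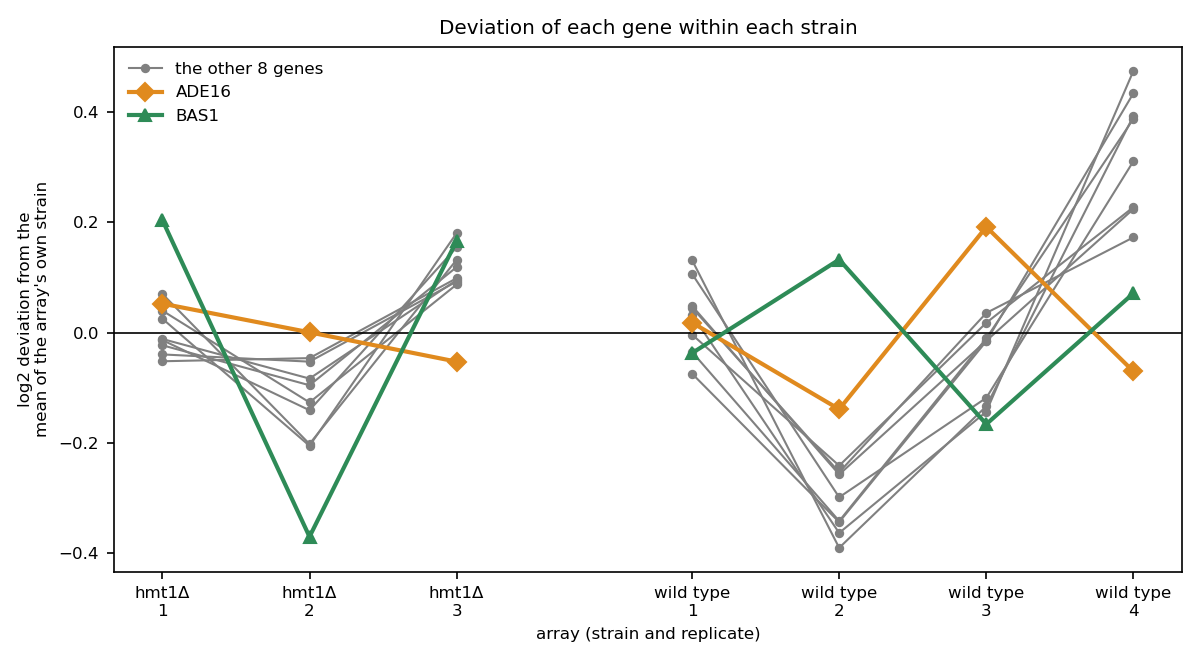
Deviation of each gene, on the log2 scale, from the mean of the array's own strain, for the 3 hmt1Δ and the 4 wild-type arrays. Lines only link the values of a gene, since replicates have no order. The 8 grey genes are all highest on wild-type replicate 4 and lowest on wild-type replicate 2, an order that ADE16 and BAS1 do not share.

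Measures of RNA quality and of the arrays that stood apart were set beside this pattern. The 3′ minus 5′ signal of ACT1, a gauge of RNA integrity, was 0.28, 0.24 and 0.28 on the deletion arrays, against 0.26, 0.34, 0.28 and 0.28 on the wild-type arrays. Wild-type replicate 2, with the lowest enzyme gene values, had the highest of these 7 readings, while wild-type replicates 3 and 4 were alike to the second decimal. Deletion replicate 2, the lowest deletion array for most of the enzyme genes, had the lowest of these 7 readings. The part of RNA quality in the pattern was not tested. Wild-type replicates 2 and 4, the wild-type arrays with the higher J01347 values, were at opposite ends of the pattern. Against replicates 2 and 4 alone the differences ran from -0.33 for BAS1 to 0.23 for ADE16, and against replicates 1 and 3 alone from -0.23 for ADE4 to 0.020 for ADE16. The test over all probe sets called 0 of the 10 genes against either pair.

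The direction of the small strain differences depended on 2 arrays. Of the 10 differences, 9 were below 0 over all arrays, but only 3 without wild-type replicate 4 (ADE4, BAS1 and, at -7.19e-05, ADE1) and 6 without deletion replicate 2. The median difference was then 0.014 and -0.0091. Leaving out any other array kept 9 of 10 below 0. At an unadjusted p under 0.05, ADE4 was counted without wild-type replicate 2 (-0.36, limma unadjusted p = 0.0336, adjusted p = 0.727), and ADE16 without wild-type replicate 3 (0.19, limma unadjusted p = 0.0264, adjusted p = 0.336) and against replicates 2 and 4 alone (0.23, limma unadjusted p = 0.0155, adjusted p = 0.268).

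**Figure D4:**
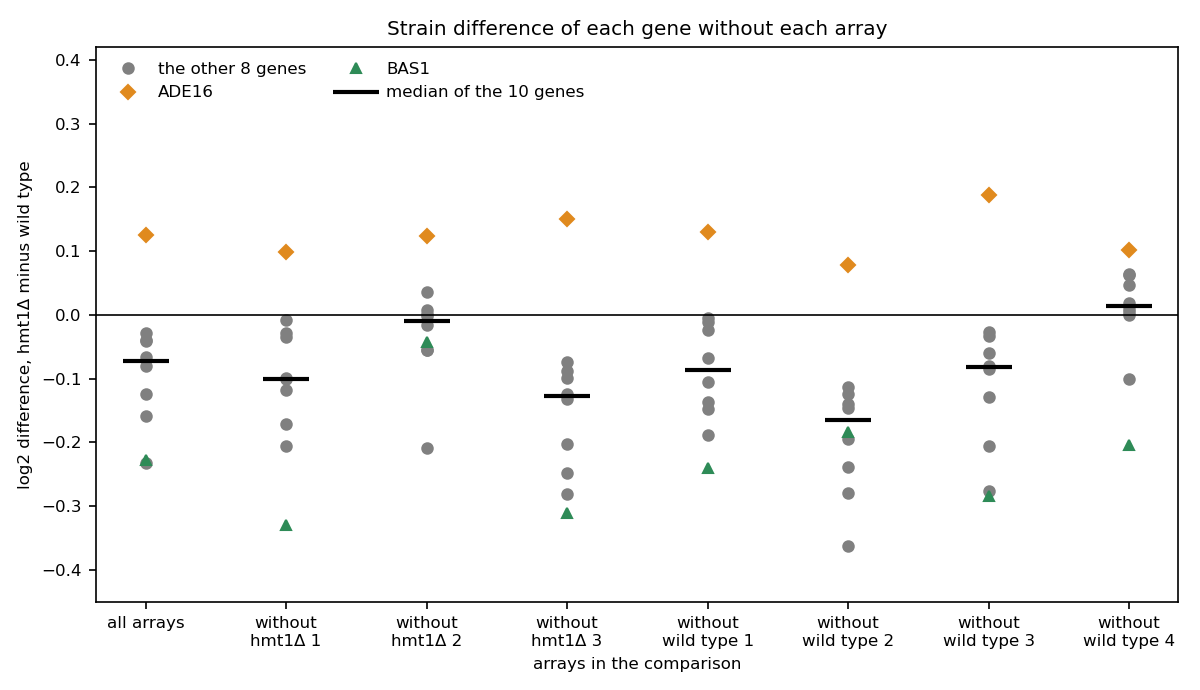
Log2 difference (hmt1Δ minus wild type) of each of the 10 genes and their median (black bar) over all arrays and with each array left out in turn. Without wild-type replicate 4 the median moves to 0.014 and 7 genes are above 0, and ADE16 is above 0 in every column.

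Other genes that feed the pathway were read from lists. Of 8 genes for the remaining steps, PRPP synthesis and the partner factor, 7 were measured, and the bifunctional ADE5,7 had no named probe set here. None of the 7 passed the test, and all 7 differences were above 0, with a median of 0.040. Those of the PRPP synthetase genes PRS1 to PRS5 and of ADE3, the folate enzyme that supplies formyl groups, lay between 0.0083 and 0.051. PHO2, the gene of the factor shared with the phosphate pathway, read 9.39, 9.46 and 9.44 on the deletion arrays, against 9.35, 9.21, 9.35 and 9.25 on the wild-type arrays. All 3 deletion arrays lay above all 4 wild-type arrays, as in 3.15% of all probe sets, but the difference was small (0.14, SE 0.06) and did not pass (limma adjusted p = 0.742).

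Salvage genes, which return adenine and its relatives to the nucleotide pool, were near 0 as well. Of 13 genes, 7 differences were above and 6 below 0, with a median of 0.029, and none passed. The smallest p belonged to ADK2, a mitochondrial adenylate kinase, at 0.20 (SE 0.10, limma adjusted p = 0.802). Of the salvage genes 1 of 13, MEU1, the methylthioadenosine phosphorylase gene, had both array orders of the adenine genes. So did 1 of the 7 genes of the remaining steps (PRS2), 1 of 5 in the GMP branch (GUK1) and 1 of 8 in pyrimidine synthesis (URA4).

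Bas1 and Pho2 also act on genes of histidine synthesis and of folate one-carbon metabolism. The 10 such genes read here include ADE3, which was also counted among the remaining steps. None passed, 4 differences were above and 6 below 0, and the median was -0.014. Both array orders of the adenine genes were present in 3 of the 10: SHM2, the cytosolic serine hydroxymethyltransferase, HIS7, which releases AICAR in histidine synthesis, and MTD1, a methylenetetrahydrofolate dehydrogenase. SHM2 read 13.15, 13.12 and 13.18 on the deletion arrays, against 13.03, 12.93, 13.14 and 13.56 on the wild-type arrays, with replicate 4 again far above the others. MTD1 read 10.91, 10.87 and 11.03 on the deletion arrays, against 11.35, 11.29, 11.49 and 11.98 on the wild-type arrays. Unlike the 10 adenine genes, MTD1 had every deletion array below every wild-type array, as in 4.49% of all probe sets, with a difference of -0.59 (SE 0.16) that did not pass (limma adjusted p = 0.440).

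At the IMP branch point the GMP side was set beside ADE12. IMD2, an inducible IMP dehydrogenase gene, read 7.74, 7.90 and 8.11 on the deletion arrays, against 9.89, 9.06, 8.89 and 9.52 on the wild-type arrays. Every deletion array lay below every wild-type array, as in 4.49% of all probe sets. The IMD2 difference of -1.42 (SE 0.23) did not pass (limma adjusted p = 0.131), and the IMD2 probe set may match several transcripts. The 4 other genes, IMD3, IMD4, GUA1 and GUK1, lay between -0.10 and 0.038. For contrast, the 8 genes of pyrimidine synthesis had a median of 0.041 and none passed. The smallest p there belonged to URA10, a minor orotate phosphoribosyltransferase, at 0.32 (SE 0.07, limma adjusted p = 0.351). Its deletion arrays all lay above its wild-type arrays, as in 3.15% of all probe sets.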

How the data were processed

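The authors deposited log2 expression values per probe set, made by RMA (background correction, quantile normalization, median polish) with affy 1.52.0, per the submitters' processing notes. For probe set definition and filters, nothing is stated in the labels. RMA hides changes in total messenger RNA, and the array signal can compress differences of very bright probe sets. Of 5900 probe sets, 5498 were named to 1 gene (5449 genes) through the platform annotation, 12 symbols were updated through RefSeq (R64), 402 had no name and none had several. The 10 genes were matched by symbol. Groups came from the titles. Every named probe set was fitted with limma 3.58.1 in R 4.3.3 (lmFit, eBayes, two-sided, Benjamini-Hochberg, threshold 0.05). Exact permutation tests ran over 35 splits (smallest p 0.0286, or 0.0571 for the values of ADE4). Data were simulated with 5498 probe sets, 200 of them changed, and 3 and 4 arrays. There 69.6% of changes of 0.5 and 94.8% of changes of 1 were recovered, with 4.67% false calls. The simulated noise was independent, the changed probe sets were random, and 200 changes ease the adjustment, where the data had 11 calls. The SE of the 10 genes was 0.085 to 0.19, beside a median of 0.085 over all probe sets. These rates therefore do not give the power for the 10 genes. The genes and lists were chosen with earlier results of these data known. The text names HMT1, all 10 genes, PHO2 and, from each other pathway list, genes past the test or that with the smallest p, plus the GMP branch. The mating-type lists served as markers. MF(ALPHA)1, SAG1, PRS1 to PRS5, ADE3, SHM2, HIS7, MEU1 and URA4 were named after their values were seen. The labels call the cultures biological replicates. Alternatives were leaving out each array, other scalings, filters and variance models, a replicate block and wild-type pairs. Figures used matplotlib 3.10.9 in Python 3.11.15.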

Additional observations from a re-analysis of the deposited data

How the results depend on the processing

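No alternative called any of the 10 genes after adjustment. Leaving out single arrays gave 1 to 9 called probe sets in place of 11 over the whole table, 0 to 1 of the 10 genes at an unadjusted p under 0.05 and 3 to 9 of 10 below 0, a count added after seeing the data. Single omissions also turned the sign of 6 genes: the range was -0.15 to 0.035 for ADE8, -0.12 to 0.018 for ADE6, -0.19 to 0.065 for ADE2, -0.14 to 0.063 for ADE13, -0.24 to 0.0041 for ADE17 and -0.11 to 0.047 for ADE12. A replicate block gave 1 called probe set and 3 of 10 genes below 0, with ADE8 at 0.0098, ADE6 at 0.018, ADE2 at 0.065, ADE13 at 0.063, ADE17 at 0.0041 and ADE12 at 0.047. Wild-type replicate 4 has no deletion partner, so by construction the block drops it from the difference. Over all probe sets the deviations of same-numbered arrays correlated at -0.035, 0.17 and -0.51, so the labels' numbers were not taken as pairs. Among all genes, 0 probe sets were called without dim ones, a filter that also removed HMT1, 1 by the unmoderated test and 7 against wild-type replicates 1 and 3 alone. Against replicates 2 and 4 alone, 1 gene of the 10 had an unadjusted p under 0.05 and ADE6 was at 0.00081. The cause was not tested in the other cases. The difference of log2 ADE17 minus log2 ADE16 stayed below 0 in all alternatives run on it, from -0.38 against wild-type replicates 2 and 4 to -0.097 without wild-type replicate 4. In the alternatives that left out arrays, and in the replicate block, too few divisions remain for the exact test to reach p = 0.05. The small number of arrays limits every value.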
